A study of Mus musculus with 20 samples.

Results

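The nuclear factor I (NFI) family of the mouse consists of 4 genes, Nfia, Nfib, Nfic and Nfix. They were chosen by gene symbol, although with earlier results of these data known. All 4 were found among the 27998 genes of the single-cell RNA-seq (scRNA-seq) data and among the 24062 genes of the RNA-seq data of cultured cells. The single-cell data come from Nestin-EGFP transgenic mice on a C57BL/6 background. In these mice a Nestin promoter and enhancer drive EGFP, and EGFP+ cells of the dentate gyrus (DG), gated on wild-type cells and negative for the dead-cell stain 7-AAD, were sorted at postnatal day 5 (P5), 12 weeks (12w) and 24 weeks (24w) of age. Each age has 1 scRNA-seq library and 1 single-cell ATAC-seq (scATAC-seq) library, so that no test between ages was possible and the intervals given for single-cell values are exact 95% intervals of counting error only. The cultured cells are mouse neural stem cells (NSCs) infected with lentivirus carrying a control (Ctrl) or a Setd8 short hairpin RNA (Setd8KD), selected with puromycin and collected 3 days after infection by the labels, whereas the heading of the study table used below to group them gives an earlier day. The labels give their tissue as hippocampus, whereas the methods describe a line from embryonic cortex kept over many passages.

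NFI proteins are transcription factors that bind DNA as dimers at a palindrome of TTGGC and GCCAA arms, and that can also bind 1 arm alone. NFIA, NFIB and NFIX are known to drive the change from division to differentiation in radial glia, to act together with SOX9 on astrocyte genes, and to be required for a normally formed dentate gyrus. NFIC is better known for its part in tooth root formation and is expressed in many tissues.

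Among open chromatin regions called at all 3 ages, 12 held a palindromic NFI site within an NFI gene or the 2 kilobases before it, and they are shown because a palindromic form of the family's motif lies at its own loci there. The full palindrome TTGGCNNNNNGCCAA lay in 3 of the 47 regions at Nfia (126.5 kilobases) and in 0 of the 43, 7 and 10 regions at Nfib, Nfic and Nfix. Over all 95090 shared regions 0.271% held it, with 259 sites in 157628 kilobases. The shorter palindrome TGGCNNNNNGCCA, which every full site also contains, was at 6 regions of Nfia, 3 of Nfib, 2 of Nfic and 1 of Nfix, and in 6.58% of all shared regions. The single arm TTGGCA was far more common, in 39 regions of Nfia, 33 of Nfib, 3 of Nfic and 9 of Nfix, and in 61.1% of all shared regions. The regions at the NFI genes are long, so no excess is read from these shares of regions. Per kilobase the full palindrome was still denser at Nfia than over all shared regions, but this rests on 3 sites. Nfix, in contrast, had 62 single arms and 1 shorter palindrome in 96.9 kilobases, against 112333 and 6673 in the 157628 kilobases of all shared regions. Both palindromes read the same on either strand, and the single arm was searched on both. The windows below are from GRCm38, the build of the files (mm10), on the strand of the gene, and the capitals mark the palindrome. The full sites of Nfia come first, 1 of them in the open region of a start site and the others in introns. The 2 sites named as start regions of Nfia and Nfib lie outside the GENCODE protein-coding transcripts of those genes. The start-region site of Nfic lies in an intron. Places are given against the GENCODE transcripts of the named NFI gene alone. RefSeq also lists a start site of Nfia further upstream, at chr4:97581943.
Nfia start region (chr4:97776483-97776543, plus strand): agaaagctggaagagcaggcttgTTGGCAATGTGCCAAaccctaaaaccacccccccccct
Nfia intron (chr4:97869236-97869296, plus strand): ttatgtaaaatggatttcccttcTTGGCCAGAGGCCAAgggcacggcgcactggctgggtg
Nfia intron (chr4:97876098-97876158, plus strand): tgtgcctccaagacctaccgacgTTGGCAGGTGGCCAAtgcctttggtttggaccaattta
Nfia intron (chr4:97920046-97920106, plus strand): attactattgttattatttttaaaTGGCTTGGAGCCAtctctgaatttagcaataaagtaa
Nfia intron (chr4:97952886-97952946, plus strand): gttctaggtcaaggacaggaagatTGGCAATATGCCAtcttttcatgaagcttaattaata
Nfia intron (chr4:98002514-98002574, plus strand): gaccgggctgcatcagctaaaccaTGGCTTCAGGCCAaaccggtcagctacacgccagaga
Nfib intron (chr4:82408554-82408614, minus strand): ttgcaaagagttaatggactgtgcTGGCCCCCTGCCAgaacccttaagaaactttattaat
Nfib start region (chr4:82510319-82510379, minus strand): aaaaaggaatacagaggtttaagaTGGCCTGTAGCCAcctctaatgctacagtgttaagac
Nfib, outside protein-coding transcripts (chr4:82690399-82690459, minus strand): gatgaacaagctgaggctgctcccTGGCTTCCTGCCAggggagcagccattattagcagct
Nfic intron (chr10:81412494-81412554, minus strand): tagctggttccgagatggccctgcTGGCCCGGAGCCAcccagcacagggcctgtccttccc
Nfic start region (chr10:81435632-81435692, minus strand): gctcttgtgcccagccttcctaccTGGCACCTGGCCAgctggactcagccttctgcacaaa
Nfix intron (chr8:84744163-84744223, minus strand): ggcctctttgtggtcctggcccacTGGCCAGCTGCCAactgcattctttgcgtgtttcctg

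These matches are strings in the reference sequence, and binding was not measured. In 300-base promoter windows of RefSeq on GRCm38, neither palindrome nor that arm, searched on both strands, was found in the 6 windows of Nfia, Nfic and Nfix, against 0.0365%, 0.807% and 14.1% of all 32851 windows. The set of windows used has no entry for Nfib, although RefSeq lists a start site for it.

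After removal of low-quality barcodes and doublets, 12752, 5271 and 2794 cells remained for the 3 ages, and their median unique molecular identifier (UMI) counts were 4261, 2271 and 2178. Pairs of libraries shared between 26 and 98 cell barcodes. Cells were clustered and named from markers, and a class is called NSC-like and so on: NSC, astrocyte (AS), neural progenitor (NPC), and the immature neuron stages IMN1 and IMN2. The NSC-like class held 1474, 454 and 111 cells, and 8 of its 10 markers were highest in it among the neural classes at each age. For IMN1-like cells this held for 4 of 7 markers at P5 and 5 at 12w, and for IMN2-like cells for 6, 5 and 7 of 8. Of the 1306 IMN2-like cells at P5, 449 were in a cluster with 0 IMN2 markers among its top 10 genes, against 58 of 617 at 12w. Only 16 IMN1-like cells were found at 24w, so no value is given there. Pericyte (PC)-like cells were the largest adult class, with 2495 cells at 12w and 1795 at 24w. The largest of their clusters, with 1080 and 818 of these cells, had 4 haemoglobin genes and 2 pericyte markers among its top 10 genes, and 295 of the 380 P5 cells were in a cluster that held 5 cells at each adult age, so PC-like levels were not compared between ages. Age was mixed with sex: 20.1% of P5 cells had Xist and no Y-linked UMIs and 31.8% the reverse, whereas 92.4% of 12w cells had Xist only and at 24w 29.5% had Y-linked UMIs only. UMIs of a class were pooled per age and given as CPM, counts in each 1000000 UMIs of the class. They count transcripts by their 3′ tags and carry no length factor, although capture can differ between genes.

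Nfib and Nfix had the highest levels of the family in immature neuron-like cells, several times those in NSC-like cells of the same library. Values for the 3 ages are given in the order P5, 12w, 24w. In IMN2-like cells Nfib measured 2609, 2047 and 2032 CPM. In NSC-like cells it measured 615, 292 and 204 CPM. The IMN2-like class was above the NSC-like class at every age, by 4.25-fold (4.10 to 4.4), 7.01-fold (6.37 to 7.74) and 9.96-fold (7.91 to 12.7). Nfix, an adult hippocampal neurogenesis factor, measured 2092, 1725 and 2001 CPM in IMN2-like cells. Its level in NSC-like cells was 363, 201 and 130 CPM at the same ages. The ratio of IMN2-like to NSC-like cells was therefore 5.76 (5.51 to 6.03), 8.58 (7.64 to 9.66) and 15.4 (11.6 to 20.9). The ratios were wider at the adult ages, where the NSC-like level was lower and the neuronal level within 1.5-fold of P5.

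Nfia, the member best known for starting gliogenesis, had a flatter course. It measured 893, 1169 and 966 CPM in IMN2-like cells, and 496, 350 and 311 CPM in NSC-like cells. The ratio between these classes was 1.80 (1.72 to 1.88), 3.34 (3.05 to 3.68) and 3.11 (2.53 to 3.84). Nfic was low throughout, at 65.7, 57.1 and 63.7 CPM in NSC-like cells and 50.4, 51.9 and 43.1 CPM in IMN2-like cells. For Nfic the ratio of IMN2-like to NSC-like cells was 0.768 (0.654 to 0.901) at P5, and its interval held 1 at 12w and at 24w.

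NPC-like cells lay between these classes for Nfib and Nfix. Nfix was at 878, 1007 and 997 CPM in them and Nfib at 969, 890 and 778 CPM. Nfia in NPC-like cells, at 517, 525 and 482 CPM, was 1.04-fold (0.996 to 1.09) its NSC-like level at P5 and 1.5-fold (1.35 to 1.67) at 12w. NPC-like cells also had the highest Nfic among the neural classes, with 104, 136 and 134 CPM. Markers of immature neurons were also higher in NPC-like than in NSC-like cells. The 15 IMN1 and IMN2 markers summed to 2882, 4366 and 3260 CPM in the former and to 688, 418 and 229 CPM in the latter. Across ages these markers were lowest at P5 in NPC-like cells. There Nfib was lower at 12w than at P5, Nfix and Nfic were higher, and Nfia was near its P5 level. Neuronal RNA at this marker level would account for 44.3% to 56.3% of Nfix and 53.7% to 65.9% of Nfib in NPC-like cells, and whether these cells make these transcripts themselves was not tested.

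IMN1-like cells, the earlier neuronal stage, had 735 CPM of Nfia, 2072 of Nfib, 73.7 of Nfic and 2347 of Nfix at P5. At 12w they had 833, 1682, 59.2 and 2024 CPM. Over the whole class, Nfix was lower in IMN2-like than in IMN1-like cells, at 0.892-fold (0.859 to 0.926) at P5 and 0.852-fold (0.802 to 0.906) at 12w. Nfib was higher, at 1.26-fold (1.21 to 1.31) and 1.22-fold (1.14 to 1.30). The order of Nfix at P5 depended on the cluster. There the largest IMN2-like cluster had 2480 CPM (2421 to 2541), with an interval that overlapped that of IMN1-like cells (2272 to 2424). At a clustering resolution of 0.4 the IMN1-like class held 1273 cells in place of 415. AS-like cells were below NSC-like cells in all 4 members at P5, between 0.771-fold for Nfix and 0.891-fold for Nfia. By 24w the order of Nfib had turned, AS-like cells having 299.6 CPM and a ratio to NSC-like cells of 1.47 (1.08 to 2.01).

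**Figure D1:**
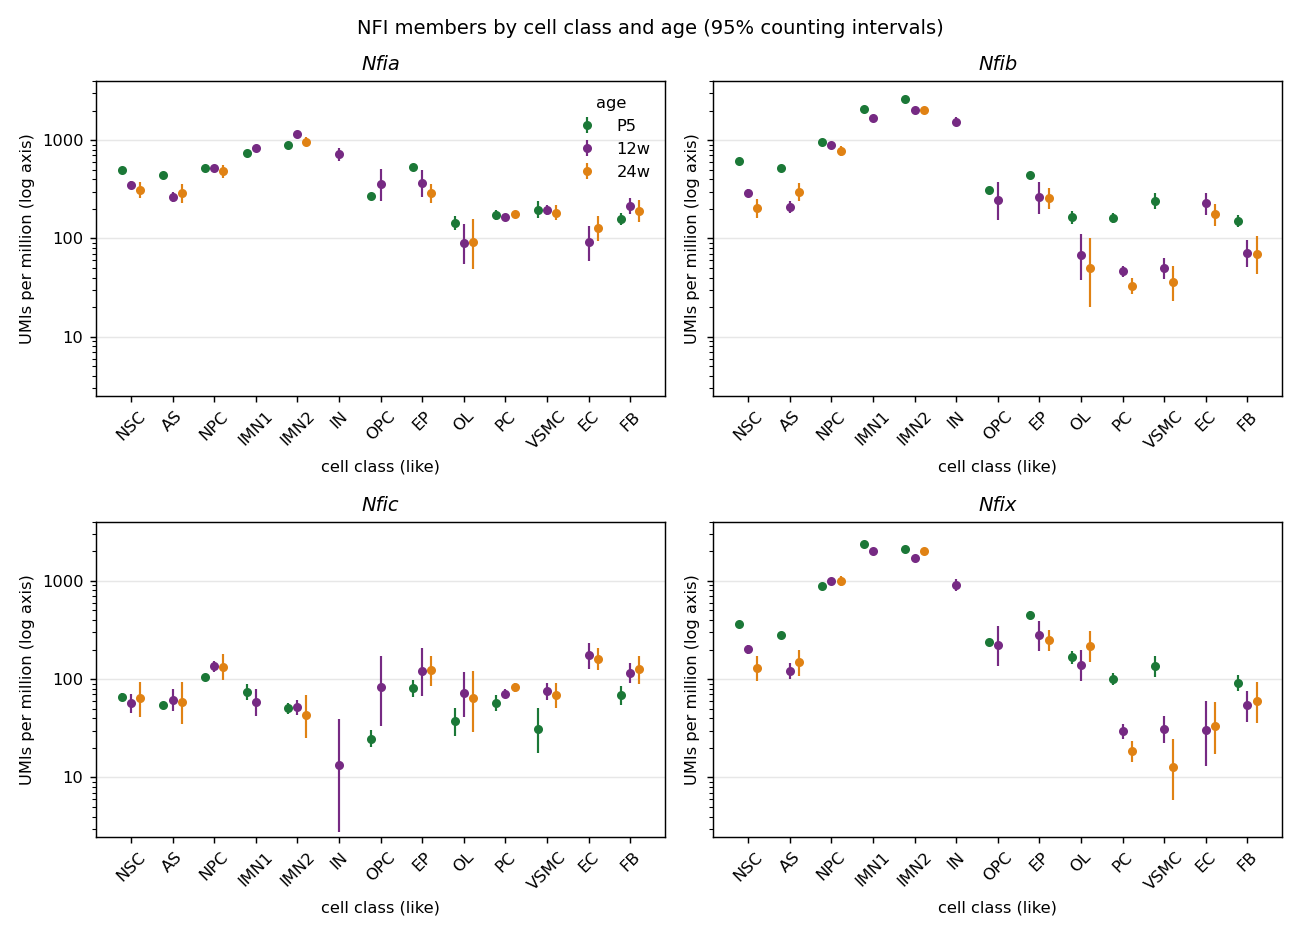
Pooled CPM (log axis) of each NFI member in 13 cell classes at P5 (green), 12w (purple) and 24w (orange), with exact 95% counting intervals and 1 library per age. Nfib and Nfix reach about 2000 in the IMN1-like and IMN2-like classes, and Nfic never exceeds 175.

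At P5, where most classes had many cells, the order of levels could be read for each gene. For Nfix it ran from IMN1-like and IMN2-like through NPC-like, ependymal (EP, 455 CPM), NSC-like, AS-like (280), cycling oligodendrocyte precursor (OPC, 277) and OPC-like cells (236) to vascular classes. The intervals of AS-like and cycling OPC-like cells overlapped, as did those of oligodendrocyte (OL, 167 CPM) and vascular smooth muscle (VSMC, 136 CPM)-like cells. For Nfib it ran from IMN2-like and IMN1-like through NPC-like, NSC-like, AS-like (521), EP-like (439), cycling OPC-like (359) and OPC-like cells (312) to VSMC-like cells (242). OL-like, PC-like and fibroblast (FB)-like cells, at 165, 163 and 150 CPM of Nfib, could not be told apart. For Nfia, EP-like (530 CPM), NPC-like (517) and NSC-like cells (496) had neighbouring intervals that overlapped. Interneuron-like cells reached the size minimum only at 12w, where 70 cells had 1538 CPM of Nfib, 911 of Nfix, 722 of Nfia and 3 UMIs of Nfic. The neuronal markers were present in the lower classes too. Neuronal RNA at the level of those markers would give 90.6% of the Nfix counted in VSMC-like, 78.0% in OL-like and 109% in FB-like cells at P5, and 58.9%, 90.9% and 76.5% of the Nfib. For OPC-like cells the same calculation gives 90.7% of Nfix and 79.1% of Nfib at P5, and for cycling OPC-like cells 76.0% and 67.4%. The part of neuronal RNA in these levels was not tested. A class of 713 unnamed P5 cells lay between the NPC-like and NSC-like classes for Nfib (740 CPM) and Nfix (632 CPM).

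Nfia was the leading member in PC-like and VSMC-like cells at the adult ages, whereas at P5 its interval overlapped that of Nfib in PC-like cells. PC-like cells had 173, 165 and 177 CPM of Nfia, and VSMC-like cells 197, 195 and 183 CPM. Nfib in PC-like cells was 163, 46.3 and 33.0 CPM, and Nfix 100, 29.4 and 18.6 CPM. The 15 neuronal markers summed to 569, 343 and 184 CPM in the same cells, and neuronal RNA at that level would give between 69.0% and 99.5% of the Nfib and between 97.2% and 143% of the Nfix counted. No difference was read from Nfib or Nfix in PC-like cells, and whether these transcripts came from other cells was not tested. Endothelial (EC)-like cells had the highest Nfic of any class at the adult ages, 175 CPM (128 to 233) in 89 cells and 162 CPM (123 to 209) in 107 cells, with intervals that overlapped those of NPC-like cells. FB-like cells had 117 and 126 CPM of Nfic at the adult ages. At P5 they had 68.9 CPM, but there 155 of 170 cells were in another cluster than most adult cells, with the cycle genes Cdkn3, Tk1 and Cks2 among its top 10.

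The share of each member among all NFI UMIs, which does not depend on the scaling, showed the same contrast between classes. Nfix made up 23.6% (22.7 to 24.4), 22.4% (20.2 to 24.6) and 18.3% (14 to 23.4) of NFI UMIs in NSC-like cells. In IMN2-like cells its share was 37.1%, 34.5% and 39.7%. The share of Nfia in NSC-like cells was larger at the adult ages, with 32.2% (31.3 to 33.2), 38.9% (36.3 to 41.5) and 43.9% (38.0 to 49.9). That of Nfib was smaller, with 39.9%, 32.4% and 28.8%. Nfic was 4.27%, 6.34% and 8.99% of the family in NSC-like cells and between 0.855% and 1.04% in IMN2-like cells.

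**Figure D2:**
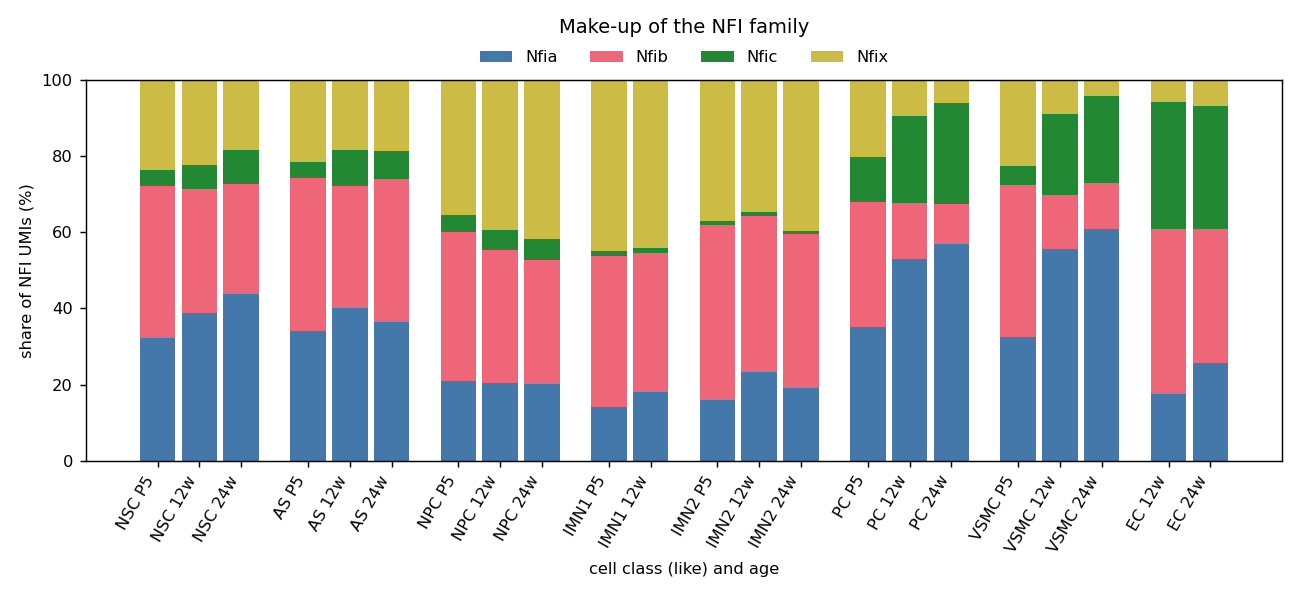
Share of Nfia, Nfib, Nfic and Nfix among all NFI UMIs of a class (percent, stacked to 100), by class and age. Nfia is 32.2% at P5 and 43.9% at 24w in NSC-like cells, and Nfic is 33.3% and 32.4% in EC-like cells.

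The summed NFI level in NSC-like cells was 1540 (1509 to 1571), 900 (853 to 948) and 709 CPM (628 to 797). In IMN2-like cells the sum was 5645, 4993 and 5043 CPM, and in NPC-like cells 2468, 2558 and 2391 CPM. AS-like cells had 1297, 660 and 797 CPM. The sum was thus lower at both adult ages in the NSC-like and AS-like classes, and near its P5 value in the NPC-like class.

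Against P5, Nfib and Nfix were lower by at least 1.5-fold at both adult ages in NSC-like cells. Nfib stood at 0.475 (0.430 to 0.524) and then 0.332 (0.263 to 0.414) of its P5 level, from 3865, 450 and 80 UMIs. Nfix stood at 0.554 (0.490 to 0.624) and 0.358 (0.266 to 0.473), from 2283, 310 and 51 UMIs. Nfia, at 0.704 (0.642 to 0.772) and 0.627 (0.519 to 0.751), was below P5 at both ages but did not reach 1.5-fold at 12w. Nfic was at 0.869 (0.683 to 1.10) and 0.971 (0.621 to 1.45). By this rule of size 2 of 4 members were lower and 0 higher in NSC-like cells, where 8.73% of the 5695 genes with enough UMIs were lower and 17.7% higher at both ages. From 12w to 24w, Nfib and Nfix in NSC-like cells again had ratios below 1, 0.699 (0.544 to 0.888) and 0.647 (0.471 to 0.872).

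In AS-like cells 3 of 4 members were lower at both adult ages, against 13.4% of 4562 genes, and 0 were higher, against 20.3%. The values for Nfia were 0.601 (0.529 to 0.680) and 0.655 (0.525 to 0.808), for Nfib 0.405 (0.351 to 0.465) and 0.575 (0.462 to 0.706), and for Nfix 0.436 (0.361 to 0.523) and 0.530 (0.386 to 0.710). Nfic was at 1.14 (0.862 to 1.48) and 1.10 (0.647 to 1.74). Here Nfib was higher at 24w than at 12w, by 1.42-fold (1.10 to 1.82).

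No member reached 1.5-fold at both ages in either direction in NPC-like or IMN2-like cells, where 4.57% of 4940 and 3.78% of 5642 genes were lower and 12.9% and 13.1% higher. In NPC-like cells Nfix was at 1.15 (1.09 to 1.21) and 1.14 (1.01 to 1.27) of its P5 level and Nfib at 0.919 (0.870 to 0.970) and 0.803 (0.706 to 0.909). In the largest NPC-like cluster alone the sign of Nfix turned, with log2 ratios of -0.01 and -0.17. In IMN2-like cells Nfia was at 1.31 (1.25 to 1.37) and 1.08 (0.972 to 1.2), and Nfib at 0.784 (0.759 to 0.811) and 0.779 (0.724 to 0.836). In IMN1-like cells at 12w the members lay between 0.803-fold for Nfic and 1.13-fold for Nfia. The median gene of the NSC-like, AS-like, NPC-like and IMN2-like classes was slightly above P5, by 0.06 to 0.17 on the log2 scale.

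**Figure D3:**
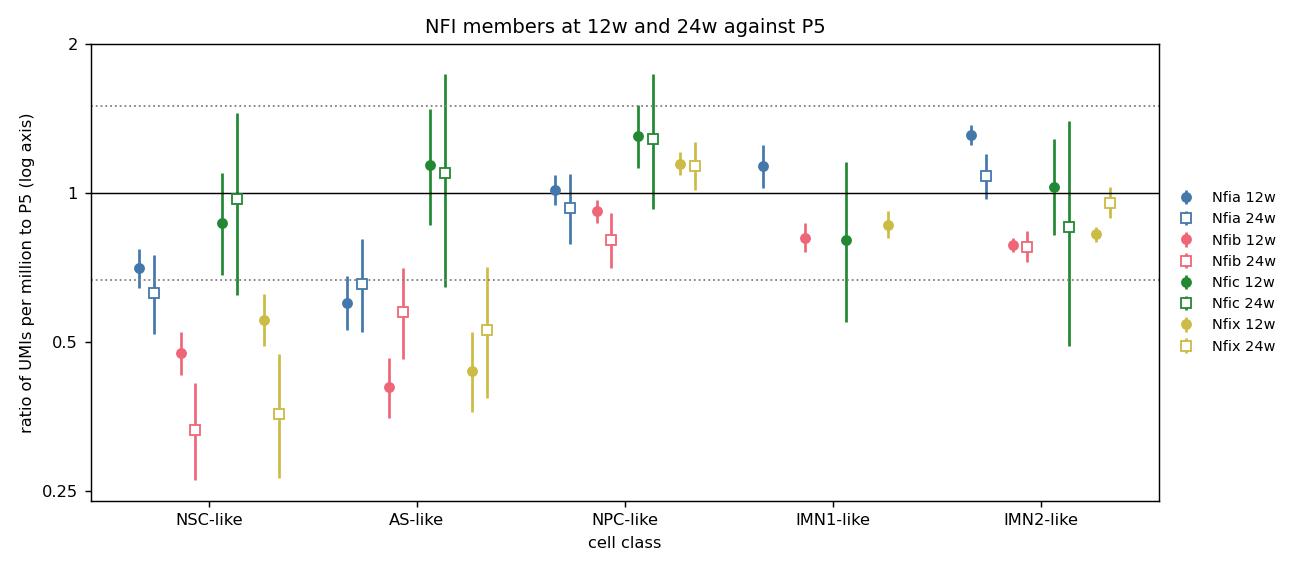
Ratio of CPM at 12w (filled circles) and 24w (open squares) to P5 (log axis) for the NFI members in 5 neural classes, with exact 95% counting intervals. The solid line is no difference and the dotted lines are 1.5-fold, and only Nfia, Nfib and Nfix in the NSC-like and AS-like classes lie below the lower dotted line at either age.

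Several measured quantities moved with these age differences. The neuronal markers were highest at P5 in NSC-like (688, 418 and 229 CPM) and AS-like cells (656, 352 and 237 CPM). At these levels neuronal RNA would give 22.1%, 19.2% and 14.4% of Nfib and 32.5%, 25.5% and 23.9% of Nfix in NSC-like cells. With that amount subtracted at each age, the log2 ratios in NSC-like cells were -1.06 and -1.50 for Nfib and -0.75 and -1.35 for Nfix, and both remained past 1.5-fold. In AS-like cells the log2 ratios were then -1.29 and -0.588 for Nfib, -1.12 and -0.563 for Nfix and -0.771 and -0.575 for Nfia, so that at 24w all 3 lay at the limit of 1.5-fold and Nfib alone was just past it. Markers of other classes moved as well. In NSC-like cells the OPC markers summed to 568, 59.0 and 91.8 CPM, the NPC markers to 365, 131 and 171 CPM, the AS markers to 4685, 9984 and 10500 CPM and the NSC markers to 1344, 3759 and 2659 CPM. In AS-like cells the OPC markers summed to 1068, 450 and 227 CPM and the AS markers to 7889, 16848 and 15105 CPM. The part of these in the NFI differences was not tested. Free RNA at the adult ages was estimated from vascular and fibroblast markers and barcodes of 10 to 100 UMIs. All UMIs of these markers in a class were taken as free. The upper estimates so made were 9.71% and 10.8% of UMIs in NSC-like cells, and P5 could not be read. The VSMC markers summed to 424, 431 and 484 CPM in NSC-like cells at the 3 ages. Pericyte markers, of which all 7 had UMIs at each age, summed to 107, 1086 and 1986 CPM in NSC-like cells. Against P5 cells of the same sex the NSC-like log2 ratios were -1.02 and -1.62 for Nfib and -0.82 and -1.51 for Nfix.

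The share of NSC-like cells with at least 1 Nfix UMI was 72.6%, 47.4% and 36.0%. At a fixed depth of 1000 UMIs per cell, which every cell reached, it was 29.8%, 18.3% and 12.6%. PC-like cells, where Nfix was near the level that their neuronal markers would give, had shares of 34.5%, 5.53% and 3.84%, and 9.82%, 3.02% and 1.98% at the fixed depth. Median depths were 4101, 3208 and 3343 UMIs in NSC-like cells and 4670, 1845 and 2028 in PC-like cells.

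Over the 35 combinations of class and age with 20 or more cells, Nfib and Nfix had the most similar profiles of any pair in the family. Pearson's r of log2(CPM + 10) was 0.92 for that pair, 0.88 for Nfia and Nfib and 0.85 for Nfia and Nfix. Nfic had r between -0.24 and -0.26 with the other members. Among 7256 genes, those most like Nfia included Zbtb20 (0.92), a factor that specifies hippocampal neurons, and Zbtb18 (0.89), a transcriptional repressor. Those most like Nfib were Celf2 (0.94), an RNA-binding splicing factor, Zbtb18 (0.92) and Nfix. Those most like Nfix were Sept3 (0.94), a neuronal septin, Prox1 (0.94), the granule neuron factor, and Nfib. The nearest to Nfic were less alike, Cdkn1a (0.69), a cyclin-dependent kinase inhibitor, Rab28 (0.68), a small GTPase, and Clic4 (0.67), an intracellular chloride channel protein. The points share libraries, and the classes were made from these cells, so these values are descriptions.

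Prox1 measured 44.4, 33.7 and 28.0 CPM in NSC-like cells and 326, 323 and 251 CPM in IMN2-like cells. Zbtb20 measured 1335, 1326 and 1028 CPM in NSC-like cells and 4168, 3485 and 3145 CPM in IMN2-like cells. The level of Zbtb20 at 12w in NSC-like cells was thus at its P5 value, unlike those of Nfib and Nfix.

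A list of 20 genes linked to NFI was chosen with earlier results of these data known, and it holds partners and upstream regulators, glial targets, progenitor genes and neuronal targets. Of the 15 with enough UMIs in NSC-like cells 1 was higher and 2 were lower by 1.5-fold at both adult ages, with a median log2 ratio of -0.07 and 0.00. Over all genes of that class 17.7% were higher and 8.73% lower. Efnb1, an ephrin ligand, was higher, from 62.8 CPM at P5 to 97.3 and 117. Fabp7, the brain fatty acid binding protein and an NFI target in glia, was lower, from 11537 CPM to 3322 and 2244. Ezh2, the histone H3K27 methyltransferase whose gene NFIB is known to repress, was lower too, from 45.3 CPM to 18.2 and 15.3. The adult values rest on 28 and 6 UMIs, and the 24w interval (0.123 to 0.744 of P5) includes falls short of 1.5-fold. Ezh2 measured 229 CPM in NPC-like cells at P5, and NPC markers in NSC-like cells were lower as well (365, 131 and 171 CPM). The part of these markers was not tested.

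Other glial targets in NSC-like cells lay near their P5 level while Nfib and Nfix were lower. Gfap, the astroglial intermediate filament, measured 861, 927 and 747 CPM. Slc1a3, a glutamate transporter, measured 3259, 3373 and 3261 CPM. Mmd2 measured 1603, 1528 and 1685 CPM, and Sox9, the partner of NFIA in gliogenesis, measured 374, 349 and 421 CPM.

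In AS-like cells, of 12 linked genes tested, Gfap was higher, from 574 CPM to 1119 and 1356, and Fabp7 was lower, from 12086 CPM to 1454 and 800.0, where 20.3% of all genes were higher and 13.4% lower. In NPC-like cells, of 14 tested, Efnb1 was higher and Gfap, Fabp7 and Slc1a3 were lower, against 12.9% and 4.57% of all genes. In IMN2-like cells, of 13 tested, Insc, a spindle orientation gene reported as an NFIX target, was past the rule, with 31.7, 68.5 and 48.2 CPM. Its 24w ratio of 1.52 rests on 19 UMIs, and the interval (0.892 to 2.46) holds 1. Sox9, Gfap, Fabp7 and Slc1a3, genes of glia, were lower there, against 13.1% of all genes higher and 3.78% lower. Mmd2, another glial target, was not called in IMN2-like cells, with 424, 434 and 431 CPM. Glial markers were also lower at the adult ages, the AS markers less so at 24w than at 12w. The 9 AS markers summed to 871, 416 and 723 CPM in IMN2-like and 1380, 654 and 802 CPM in NPC-like cells, and the 6 OPC markers to 419, 24.7 and 40.6 CPM and to 786, 38.0 and 42.7 CPM, and their part in the calls was not tested.

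Open chromatin at the NFI loci was compared between ages in regions called at all 3 ages. Cells took their class from scRNA-seq of the same age. NSC-like cells numbered 356, 500 and 171. Since about 90% of the entries are even, intervals were taken on counts divided by 2. The loci span 346141 bases for Nfia (chr4:97772734-98118874), 415578 bases for Nfib (chr4:82290173-82705750), 59450 bases for Nfic (chr10:81396186-81455635) and 100469 bases for Nfix (chr8:84699876-84800344).

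Accessibility of Nfib in NSC-like cells was near its P5 value at both adult ages, unlike its RNA. Over the gene and its upstream stretch Nfib had 889, 908 and 886 CPM of the counts in shared regions, ratios to P5 of 1.02 (0.985 to 1.06) and 0.997 (0.954 to 1.04). In the region at its start sites the ratios were 1.16 (1.07 to 1.24) and 1.23 (1.13 to 1.34). Nfix had 930, 813 and 830 CPM over the gene, ratios of 0.875 (0.843 to 0.908) and 0.892 (0.854 to 0.932). At its start sites they were 0.980 (0.931 to 1.03) and 1.09 (1.03 to 1.15). The bases called as open within the regions of each gene differed between ages. The adult lengths were 1.12 and 0.886 of P5 for Nfib, 1.02 and 0.828 for Nfix and 1.30 and 1.15 for Nfia. Nfia had 641, 725 and 779 CPM, so that its counts at 12w were up by less than its called length. At its start sites, where the called length was 1.06 and 1.01 of P5, it had ratios of 1.24 (1.15 to 1.33) and 1.40 (1.29 to 1.52). These start sites include the RefSeq one at chr4:97581943, which lies before the locus given above. Nfic had 284, 306 and 318 CPM.

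**Figure D4:**
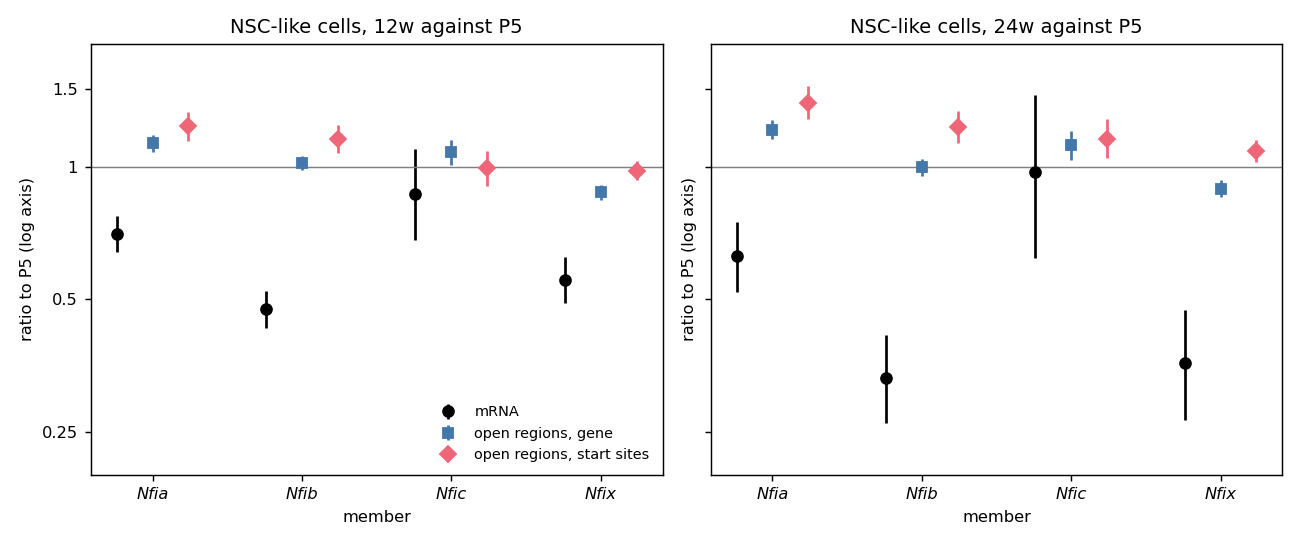
Ratio to P5 (log axis) of RNA (black), accessibility over the gene (blue) and accessibility at the start sites (red) for each NFI member in NSC-like cells at 12w (left) and 24w (right), with 95% counting intervals. The RNA of Nfib and Nfix lies between 0.332 and 0.554, and all accessibility ratios lie between 0.875 and 1.40.

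Single regions at Nfix were also compared. Of 10 regions tested at Nfix in NSC-like cells, 3 were lower by 1.5-fold at both adult ages and 0 higher, with 11.1% of all 56471 regions lower and 12.8% higher. These 3 lie side by side at the 3′ end of the gene. The region at chr8:84701168-84710437, which overlaps exons, had 121, 70.8 and 56.4 CPM over 8877, 8637 and 7229 called bases. Its neighbour at chr8:84710961-84720680, also exonic, had 102, 66.9 and 58.7 CPM over 9529, 8504 and 5676 bases. The region at chr8:84697496-84700544, outside the protein-coding transcripts of Nfix and partly past its end, had 24.2, 16.1 and 15.3 CPM over 3036, 2877 and 1981 bases. Regions were placed against the GENCODE transcripts of the NFI genes alone, so whether these 3 belong to neighbouring genes was not tested. The region with most of the start sites, chr8:84762587-84791252, had 318, 324 and 354 CPM.

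The same 3 regions were the lower ones of the 10 tested at Nfix in AS-like cells, where 4.64% of all regions were lower and 13.3% higher. There the exonic region at chr8:84701168-84710437 had 96.9, 42.1 and 52.9 CPM. In NPC-like and IMN2-like cells 0 of the 10 regions of Nfix were lower at both ages, with 4.32% and 5.63% of all regions lower. In NPC-like cells 3 of 21 regions at Nfia were higher and 0 lower, and at Nfib 2 of 28 were higher and 2 lower, against 8.45% of all regions higher. The AS-like class had 38 cells at 24w, and with a stricter transfer score its lower regions at all members numbered 1 and not 4.

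At Nfib, 4 of 35 regions in NSC-like cells were lower and 4 higher, near the shares of 11.1% and 12.8% over all regions. The exonic region at chr4:82383294-82385190 had 17.9, 6.44 and 6.34 CPM over 1897, 1773 and 1053 bases. At Nfia 3 of 36 were lower and 6 higher, against the same shares, and the intronic region at chr4:97893634-97894966 was among the higher ones, with log2 ratios of 0.91 and 1.05 over 1320, 1331 and 1160 called bases. Other higher regions at Nfia were called wider at the adult ages, such as chr4:97813668-97815557 with 454, 1839 and 1814 bases, and the part of width was not tested. In IMN2-like cells 19 of 47 regions at Nfia were higher, against 22.3% of all regions, and these include regions with such wider calls. Nfic had 1 lower region of 6 in NSC-like cells.

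Between the immature neuron-like and NSC-like classes, the Nfib and Nfix loci differed less in accessibility than in RNA. The ratios between classes use all peaks of a library at the locus, whereas the counts of regions use only those called at all 3 ages. IMN2-like cells had 1.02-fold (0.993 to 1.06) the NSC-like accessibility of Nfib at P5, 1.01-fold at 12w and 1.08-fold at 24w. At the start sites of Nfib alone the ratios were 1.02 (0.954 to 1.09), 0.785 (0.743 to 0.829) and 0.810 (0.748 to 0.878), below 1 at both adult ages. For Nfia the ratios were 0.743, 0.829 and 0.831. Of 10 regions at Nfix, 0 were higher or lower by 1.5-fold in IMN2-like cells in each of the 3 libraries, where 22.4% of all regions were higher and 17.9% lower. At Nfib 4 of 32 regions were higher and 4 lower in IMN2-like cells, against the same shares. IMN1-like cells numbered 87, 179 and 0 at the 3 ages, so their rule used 2 libraries. Cells given this class had median transfer scores of 0.470, 0.532 and 0.383, against the minimum of 0.5. In IMN1-like cells 7 of 24 regions at Nfib were higher, against 19.8% of all regions, and 3 lower, against 13.9%. NPC-like cells had 5 of 26 regions at Nfib higher and 0 lower, against 10.3% and 11.4%. For Nfix the ratio of IMN2-like to NSC-like accessibility was 1.05 (1.02 to 1.09), 1.19 (1.15 to 1.22) and 1.16 (1.11 to 1.21), whereas its RNA ratios were 5.76, 8.58 and 15.4. In PC-like cells the Nfix locus had 0.239, 0.164 and 0.136 of the NSC-like accessibility and the Nfib locus 0.413, 0.391 and 0.371.

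Regions of NSC-like cells that changed with age were compared for NFI sites in 300-base windows at their centres. The shorter palindrome was in 1.85% (1.53 to 2.21) of the lower, 0.995% (0.780 to 1.25) of the higher and 1.55% (1.43 to 1.67) of the other regions. The single arm TTGGCA was in 24.3%, 24.8% and 20.9% of them. The mean GC content of the 3 sets, 52.5%, 46.5% and 52.2%, also differed, and its part in these shares was not tested.

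In the cultured NSCs, 4 libraries hold TPM, a unit that scales reads by gene length and to one common library total, and could be grouped by a supplementary table of the study. The libraries labelled Ctrl_3, Setd8KD_1 and Setd8KD_2 have the values of its 3 Ctrl columns, and the library labelled Setd8KD_3 those of a Setd8KD column, in 169 of 169 shared genes each at a tolerance of 1e-06 TPM. Setd8, the targeted H4K20 methyltransferase, measured 154, 143 and 143 TPM in the first 3 and 36.4 TPM in the last, a log2 difference of -1.98 (SE 0.07, limma adjusted p = 0.000113). The grouping of the table is used here, with 3 Ctrl libraries and 1 knockdown library, which is assumed to vary like the Ctrl libraries. No source says whether the Ctrl libraries are separate cultures, so p-values measure the spread between these samples only.

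With the spread taken from the Ctrl libraries, 0 of 4 members passed the threshold with limma, while 41.7% of 12703 genes did, 2545 higher and 2755 lower. With edgeR on recovered reads the log2 differences of Nfia, Nfib, Nfic and Nfix were -0.112, -0.171, -0.189 and 0.00015. DESeq2 gave -0.112, -0.171, -0.189 and -3.85e-05. Nfib was the most abundant, at 58.0, 49.97 and 43.5 TPM in the Ctrl libraries and 45.1 TPM after knockdown. Its difference was -0.15 on the log2 scale (-0.49 to 0.19, adjusted p = 0.44, limma). Nfia was at 26.01, 21.6 and 19.4 TPM in the Ctrl libraries and 20.8 TPM after knockdown, a difference of -0.09 (-0.45 to 0.28, limma adjusted p = 0.67). For both genes the knockdown value lay within the range of the Ctrl values.

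Nfic was at 26.6, 28.4 and 25.97 TPM in the Ctrl libraries and at 23.8 TPM after knockdown. It was the only member below all 3 Ctrl values, with a difference of -0.17 (-0.37 to 0.03, limma adjusted p = 0.15). Nfix was at 25.6, 27.9 and 24.4 TPM and 26.1 TPM after knockdown, a difference of 0.01 (-0.22 to 0.24, limma adjusted p = 0.93).

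**Figure D5:**
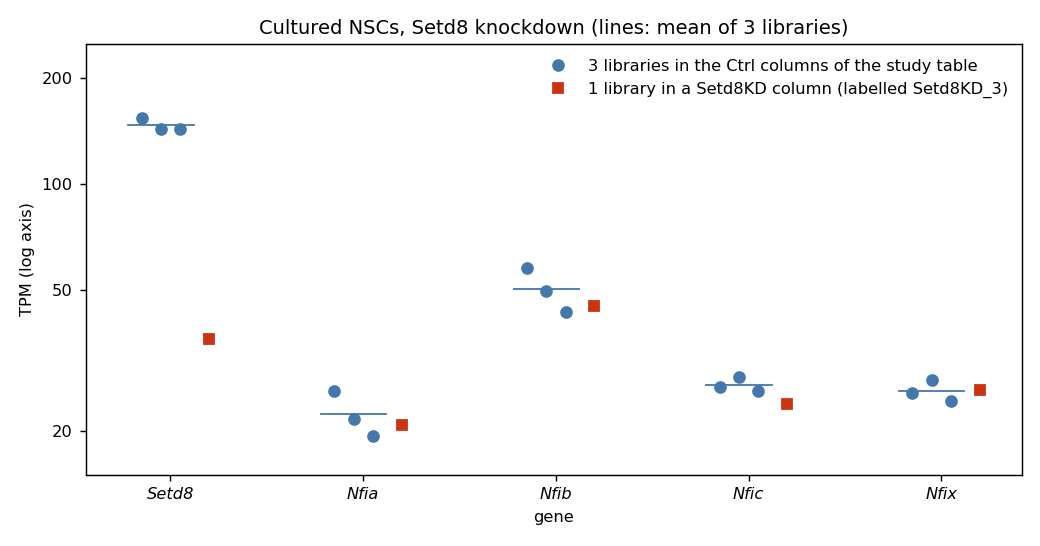
TPM (log axis) of Setd8 and the NFI members in cultured NSCs, with circles for the 3 libraries in the Ctrl columns of the study table, lines for their mean, and squares for the 1 knockdown library. Setd8 is at 36.4 TPM in the knockdown against 143 to 154 TPM, and the squares of Nfia, Nfib and Nfix lie within the range of the circles.

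The make-up of the family in culture is on a scale that is per length, unlike the UMI shares of the sorted NSC-like cells. Assay and cell source differ as well. Nfib made up 42.6%, 39.1% and 38.4% of the summed NFI TPM in the Ctrl libraries and 38.9% after knockdown. Nfic made up between 19.6% and 22.9%, whereas it was at most 8.99% of NFI UMIs in NSC-like cells.

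Of the 20 linked genes 17 could be tested, and 2 were higher and 4 lower after knockdown, where 41.7% of all genes passed, with a median log2 difference of -0.17 against 0.00 over all genes. Efnb1 (0.54, adjusted p = 0.00872, limma) and Bbx, an NFIX target in progenitors (0.43, adjusted p = 0.0213, limma), were higher. Ezh2 (-0.65, adjusted p = 0.000701, limma), Zcchc24 (-0.38), Wnt7a (-0.33) and Fabp7 (-0.29) were lower. The call of Bbx was lost without the library labelled Setd8KD_1 (limma adjusted p = 0.0651), and with no filter on TPM those of Bbx (0.0925), Efnb1 (0.13), Zcchc24 (0.0556) and Fabp7 (0.902) were lost, as limma adjusted p. The glial targets Gfap, Mmd2 and Slc1a3 and the partner Sox9 did not pass, with log2 differences of -0.20, -0.27, 0.25 and 0.19. Slc1a3 lay at the threshold (limma adjusted p = 0.0503) and passed with edgeR (adjusted p = 0.016) and DESeq2 (adjusted p = 0.0197), with a pseudocount of 0.1, and without the library labelled Ctrl_3 or Setd8KD_1 (limma adjusted p = 0.0272 and 0.0314). Sox9 passed without the library labelled Ctrl_3, with a log2 difference of 0.28 there. Rbpj passed with edgeR alone, with a log2 difference of -0.32, against -0.28 with limma.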

How the data were processed

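The scRNA-seq matrices deposited by the authors hold raw UMI counts, and the scATAC-seq matrices raw counts in peaks called per library. The submitters' processing notes name Cell Ranger 2.2.0, STAR, Trimmomatic, DESeq2 and mm10, without roles. The RNA-seq files hold TPM deposited by the authors in 4 of 6 samples. The file labelled Ctrl_1 holds gene symbols and that labelled Ctrl_2 gene lengths as deposited. Total UMIs were 67543410 at P5, 21972852 at 12w and 11353643 at 24w.

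Kept barcodes had 1000 or more UMIs, 500 or more genes and no more than 10% of UMIs from mitochondrial genes, and 932, 80 and 3 doublets (scrublet in scanpy 1.11.5) were removed. Cells were integrated and clustered with Seurat 5.3.0 (30 dimensions, resolution 0.8), with the members and linked genes left out, and named from marker lists by rules settled after the clusters were seen. Class and age groups needed 20 cells. A gene was counted as lower or higher when past 1.5-fold the same way at 12w and 24w, with 0.5 UMIs added and 10 or more expected UMIs in the smallest group. scATAC-seq cells (3000 to 100000 counts) took classes by label transfer with scores of at least 0.5, and regions needed 20 expected counts. TPM were tested with limma 3.58.1 on log2(TPM + 1) for genes with a mean TPM of 1 or more, adjusted by Benjamini-Hochberg at 0.05. Fold differences are on that scale. Whole reads, between 20040076 and 21493347 per library, were recovered from TPM and length for 100% of genes under 200 reads (tolerance 0.05 read) and used in edgeR 4.0.16 and DESeq2 1.42.0 as alternatives. The fits were tested on simulated data. The named genes were all members, Setd8, the linked genes and the 3 genes most like each member, of which 1 is not reported here. Members and lists were chosen with earlier results of these data known. Bulk ATAC-seq and H4K20me1 samples were not used here.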

Additional observations from a re-analysis of the deposited data

Results flagged for a closer look

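Nfix had ratios to P5 on opposite sides of 1 in different neural classes. Relative to P5 its level was 0.554 at 12w and 0.358 at 24w in NSC-like cells, and 0.436 and 0.530 in AS-like cells. In NPC-like cells it was 1.15 at 12w and 1.14 at 24w. Each of these ratios had a counting interval without 1, but with 1 library per age the difference between classes was not tested. The median gene of NPC-like cells was also above P5, by 0.145 and 0.127 on the log2 scale, and scaled by it the log2 ratios of Nfix there were 0.0531 and 0.0585. The neuronal markers summed to 2882, 4366 and 3260 CPM in these cells, and their part in the ratios was not tested. In the largest NPC-like cluster alone the sign turned, with log2 ratios of -0.01 at 12w and -0.17 at 24w.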

How the results depend on the processing

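No paired analysis was possible because each age has 1 library and the grouped RNA-seq libraries share no pairing between Ctrl and knockdown. In NSC-like cells the count of members lower at both adult ages was 2, where 8.73% of all genes were lower. At a fold of 2 it was 1, where 2.37% were. It was 3 when scaled by the median gene (11.3% of all genes) and in the largest cluster (9.56%), where Nfia joined. The other alternatives gave 2, with between 8.46% and 10.1% of all genes lower. In AS-like cells the count was 3, where 13.4% of all genes were lower, and 0 at a fold of 2, where 5.66% were. It was 2 with predicted free RNA subtracted (15.3% of all genes), where Nfia was lost. With predicted neuronal RNA subtracted it was 1 (13.3% of all genes). That alternative was chosen after seeing the data, along with the filter of 2000 UMIs. Lower regions in AS-like cells went from 4 to 1 with a transfer score of 0.7. Among age ratios whose counting interval did not hold 1, signs turned for Nfix in NPC-like cells in the largest cluster, with log2 ratios of -0.0108 at 12w and -0.173 at 24w. At start sites only, log2 ratios turned to 0.138 for Nfib at 12w and 0.205 for Nfix at 12w in AS-like cells, -0.0521 for Nfib at 24w in IMN2-like cells, and -0.00967 for Nfic at 12w and 0.121 for Nfix at 24w in NSC-like cells. Ratios whose interval held 1, such as those of Nfia at 12w in NPC-like cells and Nfic at 24w in NSC-like cells, also turned sign under some alternatives. The cause was not tested. After Setd8 knockdown 0 members passed in every fit, by limma, edgeR or DESeq2. Without 1 of the Ctrl replicates, numbered in the order Ctrl_3, Setd8KD_1 and Setd8KD_2, the log2 difference of Nfia ranged from -0.181 to 0.0221, turning sign without replicate 1, and that of Nfix from -0.0307, without replicate 3, to 0.0631. With DESeq2 that of Nfix was -3.85e-05. All genes called numbered 5300, and 2234 with no filter on TPM, where 24062 genes were tested. Leaving out Ctrl replicates gave between 4026 and 5710. Among the members Nfic had the fewest UMIs in each neural class, with 25 at 24w in NSC-like cells.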
